A study of Mus musculus with 6 samples.

Results

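Lef1, Tcf7, Satb1, Bcl11b, Il7r, Themis, Cd27 and Ets1 are transcription factors, receptors and a signalling adaptor that set up or maintain resting T cells. They were taken by symbol from the deposited expression table, which lists 24906 genes, and all 8 were found, each as 1 gene identifier. Expression was measured by sequencing polyadenylated RNA of spleen cells from C57BL/6J mice. In the D3TA group were 3 mice carrying a CRISPR/Cas9 knock-in that changes threonine 283 of cyclin D3 to alanine (T283A), at 12 to 16 months of age, and in the WT group were 3 wild-type mice matched for age. Each library is 1 mouse. The series' design text states that the line was bred as heterozygotes, and that D3TA mice of this age have an advanced myeloproliferative neoplasm, a clonal overgrowth of myeloid blood cells. The comparison asks how transcripts of the resting T cell programme in such spleens differ from those in WT spleens.

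In mature T cells that have not met antigen, TCF1 (the product of Tcf7) and LEF1 bind the same DNA motif through closely related HMG domains and hold the resting and self-renewing programme. BCL11B and SATB1 keep T lineage identity and organise chromatin, and ETS1 is an activator used by several lymphocyte types. Signals through the interleukin-7 receptor, whose alpha chain is Il7r, keep naive T cells alive. THEMIS tunes the signal of the T cell receptor, and CD27 is a costimulatory receptor of the TNF receptor family that binds CD70. Several of these genes are also used outside T cells: Ets1 in B and natural killer (NK) cells, Lef1 and Il7r in early B cell precursors, Satb1 in blood progenitors, and Cd27 in NK cells, memory B cells and progenitors.

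The libraries held 14944622 to 19456838 reads assigned to genes and differed in more than genotype. WT-2 stood apart, where 8449 genes were at 0; elsewhere the number was 3193 to 5170. D3TA-1 lay at the opposite end of the first principal component, at -83.8, where WT-2 lay at 124.6. Hemoglobin took more than 5% of reads in D3TA-1, D3TA-2 and WT-3. Y-linked genes had 2800 reads in D3TA-3 and 2912 in WT-1, against 43 to 236 in the other 4 libraries, and libraries were split by this measure at 1000 reads. Levels are given as normalized read counts, that is reads divided by a size factor per library, in the order of library numbers 1, 2 and 3. Each log2 difference is the D3TA mean minus the WT mean of log2(normalized count + 1), and limma tested it. Nothing in the labels says more about how the mice relate, so each p-value measures the spread between these 6 mice.

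All 8 genes had lower fitted levels in D3TA than in WT spleens, by between 1.16-fold for Il7r and 4.51-fold for Lef1. For Lef1 and Satb1 the 3 D3TA libraries lay below all 3 WT libraries, and for the other 6 genes the groups overlapped. None of the 8 passed the transcriptome-wide threshold, a Benjamini-Hochberg adjusted p under 0.05 in limma, at which 0% of the 15564 tested genes were called in either direction. All 8 had entered the test, each with at least 106 reads in each library. Their median difference was -0.98, against 0.06 over all tested genes, of which 45.5% lay below 0. Of the 8, 4 were lower at an unadjusted p under 0.05, where 3.83% of tested genes were lower and 6.08% higher. Likewise 4 of the 8, Lef1, Satb1, Tcf7 and Ets1, were at least 2-fold lower, as were 5.4% of tested genes. Groups that did not overlap were found for 2 of the 8, both lower in D3TA, against 6.84% of tested genes lower and 8.18% higher. In bulk RNA of a whole spleen, a smaller share of T cells and less of a transcript per T cell cannot be told apart. Nor can a smaller share of other cells that use these genes.

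**Figure D1:**
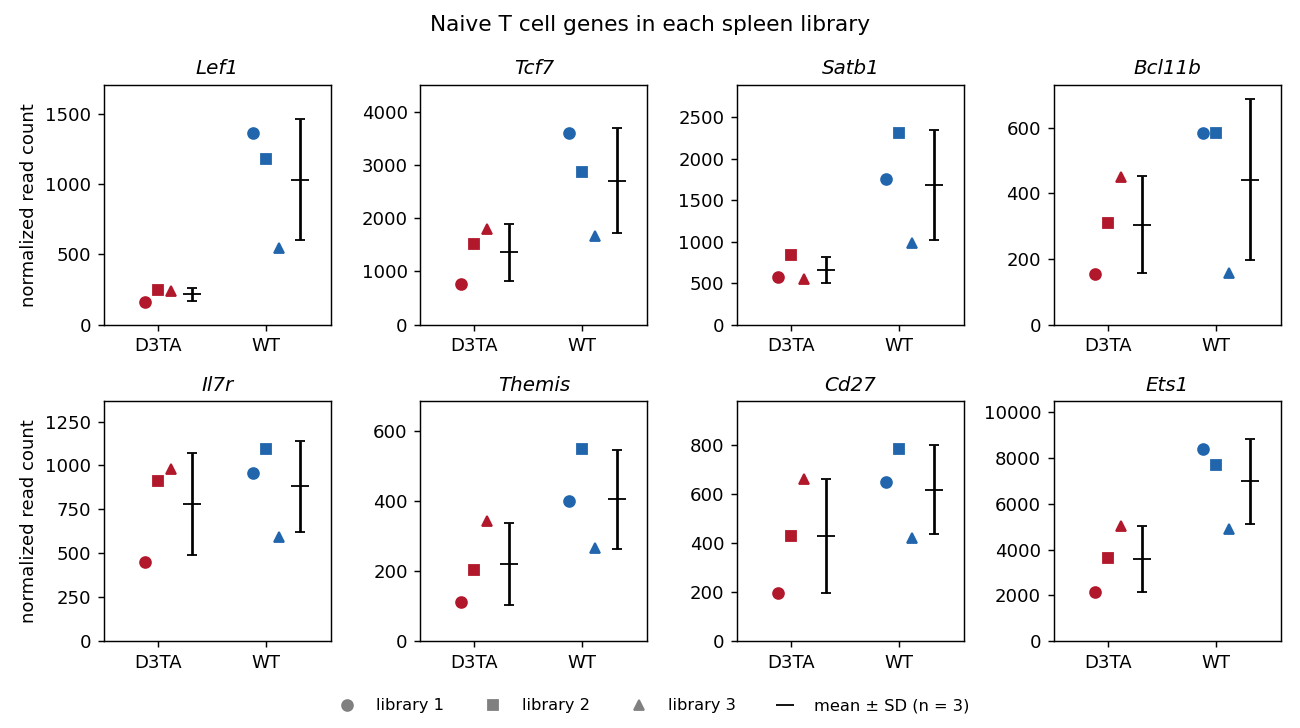
Normalized read counts (vertical axis, from 0) of the 8 genes in the 3 D3TA (red) and 3 WT (blue) libraries, with marker shape for the library number and bars for the mean ± SD. Lef1 and Satb1 show no overlap between the groups, and D3TA-1 and WT-3 are the low libraries of their groups for most genes.

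Lef1 showed the lowest D3TA level relative to WT among the 8. Lef1 (ENSMUSG00000027985, chromosome 3, 131110471 to 131224356, GRCm38) stood at 161, 245 and 240 in the 3 D3TA libraries, against 1363, 1181 and 547 in the 3 WT libraries. The D3TA values lay close together, and the highest of them was less than the lowest WT value, that of WT-3. The log2 difference was -2.17 ± 0.39 (SE), or 4.51-fold lower, adjusted p 0.105 by limma. DESeq2 on the recovered reads called Lef1, with an adjusted p of 4.85e-05, while 0.705% of the 18588 genes it adjusted were called lower. Without D3TA-3 limma also called it (adjusted p 0.0248, with 0.373% of genes called lower), and it did so when genes with low values were kept in the test (adjusted p 0.0233, with 0.0723% called lower). An antisense gene, Gm43352, shares 1208 exon bases with Lef1, and its own values were 0 to 5.05. No strand-marking step is described, so reads of the shared bases cannot be assigned to a strand. Satb1 shares 156 and 128 exon bases with 2 other annotated genes, Themis shares 153 and Cd27 129 with 1 each, and the remaining 4 share none.

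Tcf7 is the close relative of Lef1 and had the higher normalized count of the pair in each library, and also the higher value per kilobase of exon in both groups. Tcf7 (ENSMUSG00000000782, chromosome 11, 52252371 to 52283014) stood at 770, 1511 and 1804 in the 3 D3TA libraries, against 3603, 2863 and 1658 in the 3 WT libraries. WT-3 lay among the D3TA values, so the groups overlapped. The log2 difference was -1.01 ± 0.40 (SE), adjusted p 0.444 by limma. Within a library, Lef1 had 20.9, 16.2 and 13.3 normalized counts per 100 of Tcf7 in the 3 D3TA libraries, against 37.8, 41.2 and 33.0 in the 3 WT libraries. That ratio averaged 16.8 ± 3.80 in D3TA spleens and 37.4 ± 4.15 in WT spleens (SD, n = 3 per group), with no overlap. It is not adjusted for gene length and was chosen after the values were seen, so it is given without a test.

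Satb1, which encodes a chromatin organiser of T cells and their precursors, was the other gene without overlap. Satb1 (ENSMUSG00000023927, chromosome 17, 51736187 to 51833290) stood at 579, 835 and 551 in the 3 D3TA libraries, against 1750, 2309 and 982 in the 3 WT libraries. The gap between D3TA-2 and WT-3 was narrow compared with the spread among the WT libraries. The log2 difference was -1.30 ± 0.36 (SE), adjusted p 0.285 by limma and 0.0395 by DESeq2. Bcl11b (ENSMUSG00000048251, chromosome 12, 107910403 to 108003602), a zinc-finger factor needed for T lineage commitment, had 154, 310 and 450 in the 3 D3TA libraries, against 584, 583 and 159 in the 3 WT libraries. WT-3 was almost as low as D3TA-1, and the difference of -0.44 ± 0.56 (SE) was less than its error (adjusted p 0.829, limma).

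Ets1 (ENSMUSG00000032035, chromosome 9, 32636221 to 32757820) was measured with the most reads of the 8 genes in all 6 libraries. It stood at 2141, 3641 and 5020 in the 3 D3TA libraries, against 8382, 7715 and 4887 in the 3 WT libraries. D3TA-3 lay just above WT-3, and the other D3TA libraries lay below all WT libraries. It was 2.01-fold lower in D3TA, with an SE of 0.37 on the log2 scale and an adjusted p of 0.419 by limma.

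The cytokine receptor chain Il7r had the smallest difference of the 8. Il7r (ENSMUSG00000003882, chromosome 15, 9505788 to 9530176) stood at 450, 914 and 978 in the 3 D3TA libraries, against 958, 1091 and 594 in the 3 WT libraries. D3TA-2 and D3TA-3 lay inside the WT range, and D3TA-1 alone lay below it. The log2 difference was -0.21 ± 0.38 (SE), adjusted p 0.886 by limma.

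The adaptor Themis and the costimulatory receptor Cd27 both overlapped between the groups. Themis (ENSMUSG00000049109, chromosome 10, 28668360 to 28883818) stood at 114, 203 and 345 in the 3 D3TA libraries, against 400, 548 and 268 in the 3 WT libraries. Its log2 difference was -0.96 ± 0.45 (SE), adjusted p 0.529 by limma. Cd27 (ENSMUSG00000030336, chromosome 6, 125232622 to 125237010) had 197, 428 and 662 in the 3 D3TA libraries, against 652, 783 and 423 in the 3 WT libraries. D3TA-3 exceeded WT-1, and the log2 difference was -0.65 ± 0.45 (SE), adjusted p 0.668 by limma.

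**Figure D2:**
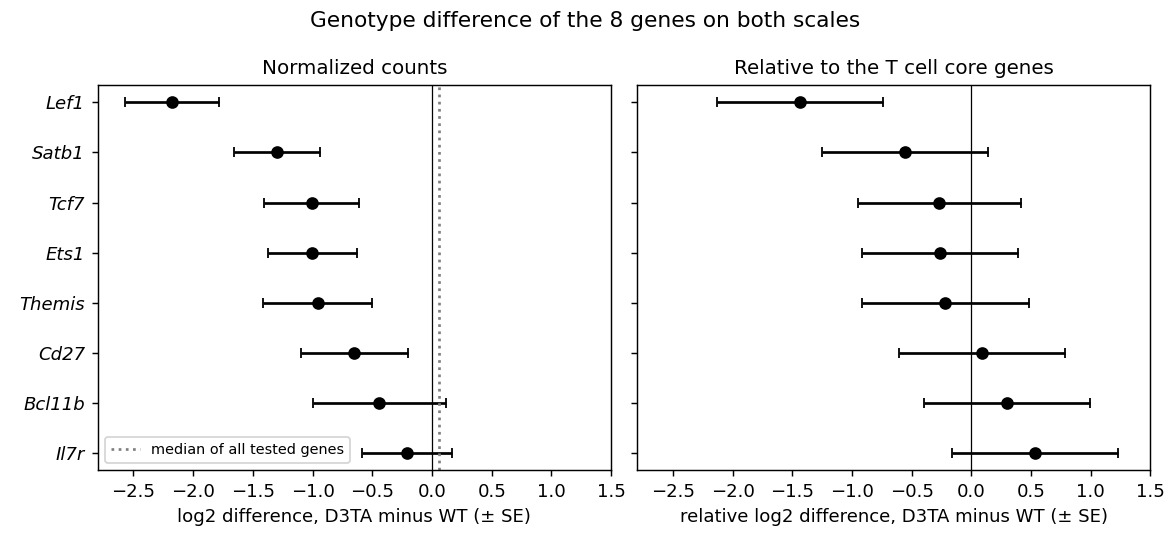
Log2 difference, D3TA minus WT, of each gene with its limma standard error (bars), on normalized counts at left and after subtracting the mean log2 value of 14 T cell core genes in the same library at right. On the left all 8 lie below 0 and the dotted line marks the all-gene median of 0.06. On the right 3 lie above 0.

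The 8 genes also shared a pattern over the libraries within each genotype. D3TA-1 was the lowest of the 6 libraries for 7 of the 8, all but Satb1, and WT-3 was the lowest WT library for all 8. D3TA-3 exceeded WT-3 for 6 of the 8, all but Lef1 and Satb1. Without D3TA-1 the log2 differences were -1.98 for Lef1, -1.22 for Satb1, -0.67 for Ets1, -0.64 for Tcf7, -0.55 for Themis, -0.17 for Cd27, -0.017 for Bcl11b and 0.15 for Il7r. Without both D3TA-1 and WT-2, Bcl11b, Il7r and Cd27 lay above 0 and 5 genes below.

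Hemoglobin share and the level of Y-linked reads split the libraries across genotype, and the values within each split are means of 1 or 2 libraries a side. Where hemoglobin was high (D3TA-1 and D3TA-2 against WT-3), 6 of the 8 genes lay below 0. Bcl11b was at 0.46 and Il7r at 0.11 there. Where it was low (D3TA-3 against WT-1 and WT-2) all 8 lay below 0. The Lef1 difference was -1.46 in the high-share and -2.40 in the low-share libraries, and the Satb1 difference was -0.50 and -1.86. Between the libraries with over 1000 Y-linked reads (D3TA-3 against WT-1) 6 of 8 lay below 0, and between those with fewer (D3TA-1 and D3TA-2 against WT-2 and WT-3) all 8 did. For Lef1 these differences were -2.50 and -2.01.

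Levels of different genes were compared per kilobase of annotated exon. In D3TA spleens Tcf7 stood at 519 ± 203 and Ets1 at 425 ± 170 normalized counts per kb, followed by Cd27 at 184 ± 99.9, Il7r at 167 ± 61.9, Bcl11b at 37.6 ± 18.3, Satb1 at 34.4 ± 8.22, Lef1 at 24.5 ± 5.41 and Themis at 18.9 ± 9.99 (SD, n = 3). In WT spleens the order was Tcf7 at 1032 ± 374, Ets1 at 825 ± 219, Cd27 at 266 ± 78.3, Il7r at 189 ± 55.1, Lef1 at 117 ± 48.7, Satb1 at 88.3 ± 35.0, Bcl11b at 54.5 ± 30.2 and Themis at 34.7 ± 12.0 (SD, n = 3). Lef1 thus stood lower in the D3TA order, below Bcl11b and Satb1, than in the WT order. The library ranges of neighbours in the D3TA order were separate only between Il7r and Bcl11b and between Satb1 and Lef1, and in the WT order only between Ets1 and Cd27. The annotated exons of Satb1 sum to 19027 bases, more than for any other of the 8, which lowers its value per kb where those exons are not all used.

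The same genes were then set against T cell RNA in their own library. The T cell core list held 14 genes, mostly of the T cell receptor complex and its signalling, such as Cd3e, Cd3d, Lck, Zap70, Trac and Trbc2. It also held the surface receptor genes Cd2, Cd5 and Cd6. All 14 lay below 0, with a median difference of -0.82, and 0 were called by limma. At an unadjusted p under 0.05 in limma 3 were lower, against 3.83% of tested genes. Their summed normalized counts were 7482, 21555 and 24031 in the 3 D3TA libraries, against 25945, 30161 and 26831 in the 3 WT libraries. D3TA-1 held much the least T cell RNA. Without D3TA-1, a comparison added after the values were seen, 12 of the 14 lay below 0 with a median of -0.25, and the difference in their mean log2 value was -0.23, against -0.74 with it. Relative to the mean log2 value of this list, 5 of the 8 genes lay below 0 and 3 above, with a median of -0.24, against 0.80 over all tested genes. The all-gene median on this scale was 0.29 without D3TA-1.

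Only Lef1 and Il7r among the 8 had groups that did not overlap on this relative scale, and they lay on opposite sides. Relative Lef1 was -1.57, -2.37 and -2.64 in the 3 D3TA libraries, against -0.30, -0.60 and -1.38 in the 3 WT libraries. The relative difference was -1.43 ± 0.69 (limma SE), with an adjusted p of 0.299, and the exact 2-sided permutation p of 0.1 is the smallest that 3 against 3 mice can give. Relative Il7r was -0.091, -0.48 and -0.62 in the 3 D3TA libraries, against -0.81, -0.71 and -1.26 in the 3 WT libraries. Its relative difference was 0.53 ± 0.69 (limma SE), with an adjusted p of 0.641 and the same exact permutation p of 0.1. Tcf7, at a relative difference of -0.27 ± 0.69, overlapped between the groups. Without overlap on this scale, 0.919% of tested genes lay lower in D3TA and 19% higher, and the Il7r difference of 0.53 was less than the all-gene median. By limma 0.0514% of genes were called lower and 1.97% higher, 315 genes in all. That count was 0 without D3TA-1, 82 without D3TA-2, 1066 without D3TA-3, 151 without WT-1 and 125 without WT-2. The spread of the T cell list, with an SD of 0.89 in D3TA and 0.17 in WT (n = 3 each), enters the values of all genes on this scale. Errors from limma are drawn towards those of all tested genes. From a gene's own 6 values the SE was smaller, at 0.46 for Lef1, 0.23 for Il7r and 0.29 for Tcf7.

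**Figure D3:**
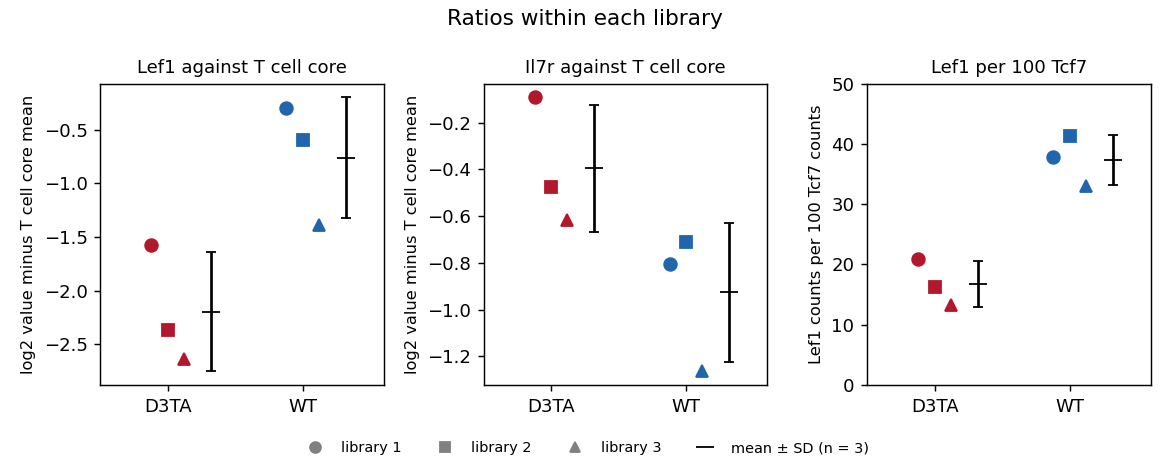
Values within each library for D3TA (left in each panel) and WT, as log2 Lef1 and log2 Il7r minus the mean log2 value of the T cell core genes, and as Lef1 counts per 100 Tcf7 counts. Marker shape gives the library number and bars the mean ± SD; D3TA lies below WT for both Lef1 ratios and above WT for Il7r.

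Genes that act with these members were then described by lists. Of 28 tested partners of TCF1 and LEF1 and other T lineage factors, 17 lay below 0, the median was -0.10 and 0 were called by limma in either direction. At an unadjusted p under 0.05 in limma, 2 were lower and 1 higher, against 3.83% and 6.08% of tested genes. Without D3TA-1 the medians of this list and the 3 that follow were nearer 0, at -0.012 for these partners, 0.059 for the interleukin-7 pathway, 0.011 for the genes around CD27 and -0.075 for those around THEMIS. Id3, an inhibitor of E proteins kept high in resting T cells, had 563, 1230 and 1177 in the 3 D3TA libraries, against 1703, 2461 and 2775 in the 3 WT libraries, a log2 difference of -1.28 (adjusted p 0.294, limma). Foxp1, a forkhead factor that holds naive T cells quiescent and also acts in B cells, had 1039, 1456 and 1206 in the 3 D3TA libraries, against 2778, 2862 and 1703 in the 3 WT libraries. The Foxp1 difference was -0.96 (adjusted p 0.357, limma). Neither gene had overlapping groups, and 6.84% of tested genes lay lower in D3TA without overlap.

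Along the interleukin-7 pathway, 10 of 17 tested genes lay below 0, with a median of -0.11 and 0 called by limma. At an unadjusted p under 0.05 in limma 0 were lower or higher, against 3.83% and 6.08% of tested genes. Mcl1, a BCL2 family survival factor, averaged 7347 ± 965 in D3TA spleens and 10275 ± 865 in WT spleens (SD, n = 3 per group), a difference of -0.49 (adjusted p 0.615, limma). Cish, a STAT5-induced inhibitor of cytokine signalling, had 935, 266 and 119 in the 3 D3TA libraries, against 157, 237 and 92.8 in the 3 WT libraries. D3TA-1 lay far above and D3TA-2 just above the WT range, D3TA-3 lay inside it, and the adjusted p was 0.654 in limma.

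Around CD27, 11 of 16 tested genes lay below 0, with a median of -0.36 and 0 called by limma. Of the 16, 2 were lower at an unadjusted p under 0.05 in limma, against 3.83% of tested genes. Traf5, an adaptor that binds CD27, had 382, 628 and 474 in the 3 D3TA libraries, against 807, 960 and 1397 in the 3 WT libraries, a difference of -1.08 (adjusted p 0.319, limma). Relb, the noncanonical NF-kappaB subunit, averaged 952 ± 408 in D3TA spleens and 1566 ± 236 in WT spleens (SD, n = 3 per group), with overlapping groups. Around THEMIS and the proximal T cell receptor signal, 14 of 20 genes lay below 0, with a median of -0.24 and 0 called by limma. Of the 20, 1 was lower at an unadjusted p under 0.05 in limma, near the 3.83% of tested genes. Ptpn6, the phosphatase SHP-1 that THEMIS binds, averaged 4528 ± 796 in D3TA spleens and 6841 ± 626 in WT without overlap, and Cd8b1, the CD8 beta chain, 737 ± 293 in D3TA and 1266 ± 312 in WT with overlap (SD, n = 3 per group).

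Genes of naive homing and quiescence were described next. Of 19 tested, 16 lay below 0 and 3 above, the median was -0.60 and 0 were called by limma. Without overlap, 8 had D3TA below WT and 1 had D3TA above WT, against 6.84% and 8.18% of tested genes. At an unadjusted p under 0.05 in limma, 9 were lower and 0 higher, against 3.83% and 6.08% of tested genes. Without D3TA-1, 15 lay below 0 and the median was -0.63. Nsg2, a membrane protein gene that marks naive T cells, had 163, 300 and 309 in the 3 D3TA libraries, against 1146, 730 and 925 in the 3 WT libraries, a difference of -1.89 ± 0.35 (SE; adjusted p 0.112, limma). Dapl1, another transcript of naive T cells, had 10.7, 13.1 and 25.9 in the 3 D3TA libraries, against 180, 90.7 and 155 in the 3 WT libraries, which is 8.33-fold lower (adjusted p 0.112, limma). For both, each D3TA value was far below each WT value. The homing genes Ccr7, Klf2 and S1pr1, named after their values were seen, also lay lower without overlap, by 3.26-fold, 2.21-fold and 2.43-fold (adjusted p 0.285, 0.237 and 0.293, limma). B cells use these 3 genes too.

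The effector and memory T cell list held genes on both sides of 0. Of 21 tested genes 10 lay below 0 and 11 above, with a median of 0.17 and 0 called by limma. Of the 21, 1 was higher at an unadjusted p under 0.05 in limma, near the 6.08% of tested genes. Without D3TA-1, 4 lay below 0 and the median was 0.42. Il18rap, a chain of the interleukin-18 receptor, had 714, 665 and 318 in the 3 D3TA libraries, against 182, 204 and 285 in the 3 WT libraries (difference 1.27, adjusted p 0.329, limma). Its groups did not overlap, and 8.18% of tested genes lay higher in D3TA without overlap. D3TA-3 lay closest to the WT values. Il18rap was highest in D3TA-1, the library with the least T cell RNA. Which spleen cells its reads came from was not tested. Relative to the T cell core, the naive list had a median of 0.14 and the effector list one of 0.91, where all tested genes had 0.80. The difference between the lists was not tested.

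**Figure D4:**
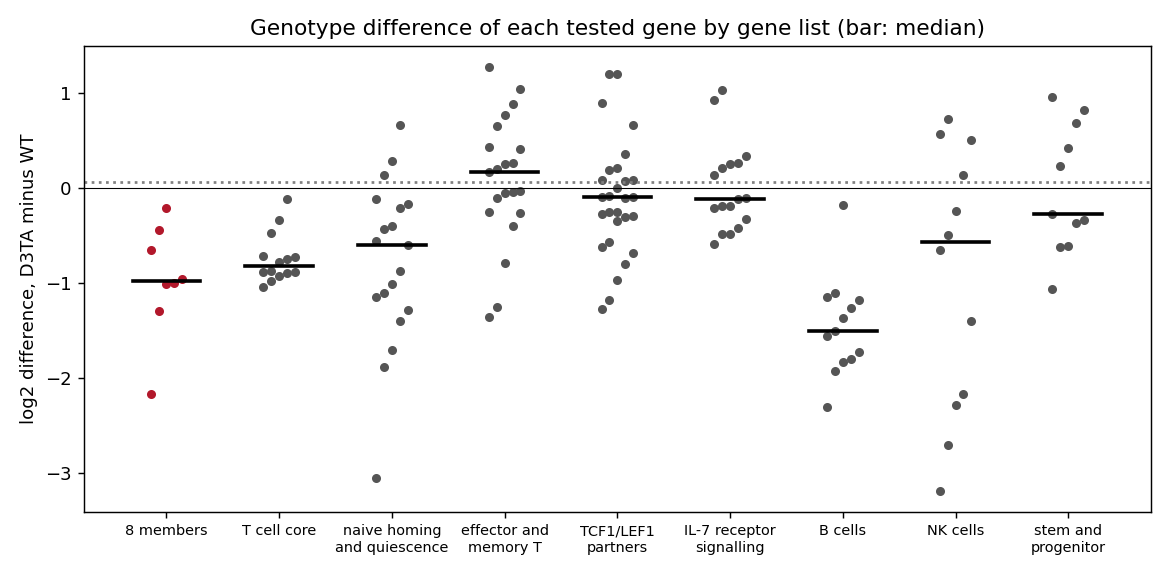
Log2 difference, D3TA minus WT, of each tested gene (points) by gene list, with the list median as a bar and the all-gene median of 0.06 as a dotted line. The 8 members (red, median -0.98) and the T cell core genes lie below 0, B cell genes lie lower still, and the effector and memory list is centred near 0.

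Markers of other cell types in the spleen, several of which use these genes, were measured in the same libraries. All 13 B cell markers lay below 0, with a median of -1.51 (-0.80 without D3TA-1), and their summed counts were 14599 to 45311 in D3TA and 73717 to 91828 in WT. Of 12 NK markers 8 lay below 0 and 4 above, with a median of -0.57 (-0.34 without D3TA-1). Without overlap, 3 of the 12 (Ncr1, Klra8 and Klra4) lay lower in D3TA and 0 higher, against 6.84% and 8.18% of tested genes. The NK sums were 3246 to 6204 in D3TA and 3261 to 7130 in WT. Fcgr3 and Nkg7, both above 0, had the highest means of the 12 in both groups, and so were the largest parts of these sums on average. Fcgr3 averaged 1623 in D3TA and 1142.5 in WT, and Nkg7 1521 in D3TA and 1029 in WT. Of 11 stem and progenitor markers 6 lay below 0, with sums of 2091 to 2671 in D3TA and 1610 to 3050 in WT. Thymocyte and lymphoid progenitor genes were sparse, and 3 of 8 listed in the table passed the filter. Rag2 was at 0 in all libraries but WT-2, and Ptcra was at 0 in all but D3TA-3. The sums were 221 to 558 in D3TA and 588 to 1211 in WT. Most of each sum was Cd1d1. It had 185, 503 and 339 in the 3 D3TA libraries, against 528, 679 and 1110 in the 3 WT libraries. Innate lymphoid markers, with 4 of 8 in the table tested, summed to 367 to 848 in D3TA and 315 to 405 in WT. The highest of these was D3TA-1, where Il1rl1 alone had 669, while D3TA-2 and D3TA-3, at 370 and 367, lay inside the WT range. Neutrophil markers, all 12 of which lay above 0, summed to 80902 to 442883 in D3TA and 12351 to 28802 in WT. Erythroid markers, 10 of 10 above 0 with a median of 0.90 (0.40 without D3TA-1), summed to 299742 to 1156850 in D3TA and 244311 to 1256380 in WT. The part of these cells in the values of the 8 genes was not tested.

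The members were also compared by the shape of their profile over the 6 libraries, as the root mean square difference between centred log2 values. Tcf7 and Ets1 were the most alike pair, at 0.12, and Themis and Cd27 followed at 0.18. Lef1 and Il7r were the least alike, at 1.01. Outside the 8, the profiles nearest to their mean were those of Ldhd at 0.099, Fam102a at 0.11, Inpp4b at 0.13, Sept6 at 0.13 and Itgb7 at 0.14. Ldhd encodes a mitochondrial lactate dehydrogenase, Inpp4b a phosphoinositide phosphatase, Sept6 a septin and Itgb7 the integrin beta7 chain of lymphocytes. Itgb7 had 1241, 2099 and 2004 normalized counts in the 3 D3TA libraries, against 4090, 4176 and 2183 in the 3 WT libraries. Such likeness over 6 libraries is a description and carries no test.

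Promoter sequence was read for the members from RefSeq on GRCm38.p6, which held a start for 7 of the 8 (not Ets1). For each gene the first listed start was used, with 250 bases before it and 30 after. Lef1 had 4 listed starts, Satb1 5 and Il7r 1, and starts after the first were not searched. Shown are Lef1 and Satb1, whose groups did not overlap, and Il7r, whose difference was the smallest. Capitals mark matches, on either strand, to CTTTGA for TCF/LEF factors, GGAAGT for ETS factors, TGTGGT for RUNX factors or GTAAACA for FOXO factors; no 2 matches overlapped.
Lef1: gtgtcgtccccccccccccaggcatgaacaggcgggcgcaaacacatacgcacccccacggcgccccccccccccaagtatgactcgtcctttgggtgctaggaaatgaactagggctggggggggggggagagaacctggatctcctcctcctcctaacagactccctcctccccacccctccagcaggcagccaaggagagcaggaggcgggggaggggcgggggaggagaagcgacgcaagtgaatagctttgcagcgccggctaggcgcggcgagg
Satb1: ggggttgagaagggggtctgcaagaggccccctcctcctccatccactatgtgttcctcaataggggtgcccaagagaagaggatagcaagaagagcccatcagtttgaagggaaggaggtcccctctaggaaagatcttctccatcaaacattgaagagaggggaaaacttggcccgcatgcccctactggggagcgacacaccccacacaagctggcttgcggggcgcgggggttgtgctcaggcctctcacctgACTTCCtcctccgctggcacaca
Il7r: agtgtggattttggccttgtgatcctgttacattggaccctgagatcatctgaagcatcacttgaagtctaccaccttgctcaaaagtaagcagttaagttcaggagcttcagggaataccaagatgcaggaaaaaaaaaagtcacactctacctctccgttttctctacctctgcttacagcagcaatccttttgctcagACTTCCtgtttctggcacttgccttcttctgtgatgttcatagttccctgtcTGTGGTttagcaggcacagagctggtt
These are chr3:131110047-131110326 on the plus strand for Lef1, and chr17:51833261-51833540 and chr15:9529847-9530126 on the minus strand for Satb1 and Il7r. The Lef1 window, at 1 of its 4 starts, held 0 matches to the 4 motifs. It ends before the annotated gene start at 131110471. The Satb1 window held 1, ACTTCC at bases 258 to 263 counted from 1 at the window's 5′ end, which is the ETS motif on the other strand. The Il7r window held the same letters at bases 202 to 207 and the RUNX motif at bases 254 to 259. Among the 7 windows the ETS motif was found in 3 (42.9%), against 22.6% of 27025 gene promoters of the same length. The TCF/LEF motif was found in 2 of the 7, those of Bcl11b and Cd27 (28.6%), against 15.4% of promoters. The RUNX motif was in 1, against 15.8%, and the FOXO motif in 0, against 3.4%. A match is a description of letters, not a binding site.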

How the data were processed

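Each library holds polyadenylated RNA from spleen cells of 1 mouse, with grouping by title (3 D3TA, 3 WT). Per the labels' protocols, messenger RNA was isolated with poly-T beads and primed with random hexamers. Named in the submitters' processing notes, without versions, are HISAT2, Trim Galore, FastQC, CASAVA, DESeq2 and the build mm10; the counting program and annotation are not given in the sources used here. The deposited file carries a title of raw counts. Judged by its values it holds a signal made by the authors, namely reads divided by one size factor per library. All of 149436 values were whole multiples of a library's step (100% within 0.001; steps 0.864 to 1.12), so reads were recovered for count tests. The step of D3TA-2 is 1.01. A value of 3 reads equals 2.59 to 3.36 normalized counts, which covers counting error only.

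Symbols came from GENCODE M21 (GRCm38), which held 24895 of 24906 identifiers. Genes whose value reached 10 in 3 or more libraries were fitted as log2(value + 1) with limma 3.58.1 (trend, robust), genotype as factor, Benjamini-Hochberg over 15564 genes at 0.05, 2-sided; edgeR 4.0.16, limma-voom and DESeq2 1.42.0 were alternatives. This scale understates changes of low genes. The same fit was run on values minus the mean of the T cell core list. Members, lists, tests and alternatives were chosen with earlier results of these data known. Named genes were the 8 members, the 2 genes with the smallest p of each of 6 pathway lists and the 5 nearest profiles; 1 gene of the effector and memory list is not reported here, and others are said to be named after their values were seen or serve as cell markers. The tests were run on simulated counts with planted changes larger than those of the 8 members, so that check does not cover changes of their size. R 4.3.3, Python 3.11.15 and matplotlib 3.10.9 were used.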

Additional observations from a re-analysis of the deposited data

How the results depend on the processing

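For all genes together, the count called by limma was 0 (1542 at an unadjusted p under 0.05). The count became 44 with no filter on low values, 15 with a term for over 1000 Y-linked reads, 11 with a term for a high hemoglobin share and 472 with DESeq2. Leaving out single libraries gave 0 to 306, the highest without D3TA-3. It stayed at 0 with edgeR (1611 genes at an unadjusted p under 0.05) and limma-voom (1406). Of the 8 genes, 8 lay below 0 under the alternatives run, except 7 without D3TA-1, 6 with the hemoglobin term (where Bcl11b was at 0.045 and Il7r at 0.023) and 5 without both D3TA-1 and WT-2 (Bcl11b 0.30, Il7r 0.33, Cd27 0.019). With single libraries left out, Il7r lay between -0.47 (without WT-3) and 0.15 (without D3TA-1). The median difference lay between -1.23 and -0.60 with single libraries left out and was -0.44 without both D3TA-1 and WT-2. Lef1 ranged from -2.58 to -1.83 over 21 alternatives and was called with no filter, without D3TA-3 and by DESeq2; Satb1 ranged from -1.64 to -0.95 and was called by DESeq2. The causes were not tested. On the scale relative to the T cell core, 0 of the 8 were called under any of 15 alternatives. There, with single libraries left out, Bcl11b lay between -0.23 and 0.59 and Cd27 between -0.069 and 0.21, both lowest without WT-3, while Lef1 lay between -1.75 and -1.20.

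Nothing in the labels pairs libraries of the same replicate number. Deviations of same-numbered libraries correlated at -0.057, -0.0046 and -0.13. With 3 libraries a group, these correlations cannot tell whether same-numbered libraries were handled together. With the replicate number as a block, 0 genes were called, the median of the 8 stayed at -0.98, and relative to the T cell core 188 genes were called, against 315 without the block, and 0 of the 8. With 3 mice a group, a log2 standard error of 0.36 to 0.56 limits what could be seen for these genes, each of which had 106 or more reads in every library.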
